A study of Mus musculus with 3 samples.

Results

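The 6 genes Ly6a, Ly6c1, Ly6c2, Ly6e, Ly6d and Ly6k were followed in droplet scRNA-seq data of mouse CD4+ T cells, out of 31053 genes in the count tables. They are listed members of the Ly6 family and were selected on their levels in these same libraries, so the differences between libraries are descriptions and no test is attached to them. All cells came from spleens of male C57BL/6 mice, 5 to 10 weeks old by the study's methods, carrying a floxed Ift20 gene, and were enriched for naïve CD4 T cells and sorted as 7AAD-CD3+CD4+ cells. The unstimulated WT library held Ift20 f/f cells treated with DPBS, the stimulated WT library held Ift20 f/f cells after 24 h with antibodies to CD3 and CD28, each at 1 μg/mL, and the stimulated IFT20-KO library held cells of Ift20 f/f CD4 cre mice after the same stimulation. CD4 cre acts in the T cell lineage from the thymus on, and no WT library carried it, so the deletion of Ift20 and the presence of Cre cannot be told apart. An unstimulated IFT20-KO library was not analysed here. Each condition had 1 library, and the number of mice behind each is not given in the sources used here, so no value has a replicate error.

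The kept cells numbered 8031 in the unstimulated WT, 9903 in the stimulated WT and 13920 in the IFT20-KO library, with medians of 4627, 12167 and 5014.5 UMIs (unique molecular identifiers, each standing for 1 captured RNA molecule). The label was checked with Ift20, which measured 64.4 UMIs per 1000000 UMIs of the library in unstimulated WT, 76.0 in stimulated WT and 6.60 in IFT20-KO cells. The share of cells with at least 2 of 6 CD4 T cell markers was 94.98%, 97.5% and 98.3%. No cell had 2 B cell markers, and all 3 neutrophil and both platelet markers were at 0 UMIs in every library. Cells with at least 2 myeloid markers numbered 5, 23 and 19 in the same order. Those with both CD8 T cell markers numbered 2, 3 and 8, and those with at least 2 NK cell markers 4, 0 and 1. A UMI of at least 1 CD8 T cell marker was found in 872 unstimulated WT cells. The libraries shared between 114 and 197 cell barcodes pairwise, at most 1.99% of a library. Cells below 0.33 of their own library's median depth made up 10.4%, 23.2% and 3.34% of the 3 libraries, in the same order. This cutoff lay at more UMIs in stimulated WT, the deepest library, so these shares do not compare the libraries at the same depth.

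Ly6 proteins are small, disulfide-rich molecules of the uPAR fold, most of them held on the cell surface by a GPI (glycosylphosphatidylinositol) lipid anchor. Ly6a encodes Sca-1, a marker of stem cells and of activated or memory lymphocytes in the mouse, and Ly6c1 and Ly6c2 encode the Ly6C antigen. Ly6e encodes a GPI-anchored protein known for its effect on virus entry. Ly6a, Ly6c and Ly6e are known to be inducible by interferons, which act through receptors that signal by JAK kinases. Ly6d and Ly6k are known for roles outside mature CD4+ T cells, Ly6d as a marker of lymphoid progenitors and keratinocytes and Ly6k in the testis.

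The 6 genes lie within 349.9 kb of chromosome 15 (GRCm38, GENCODE M21), with Ly6e on the + strand and the other 5 on the - strand. Their positions are chr15:74762056-74763620 for Ly6d, chr15:74796874-74799986 for Ly6k, chr15:74955051-74959905 for Ly6e, chr15:74994877-74998031 for Ly6a, chr15:75044018-75048830 for Ly6c1 and chr15:75108158-75111970 for Ly6c2. Their identifiers in the count tables are ENSMUSG00000034634, ENSMUSG00000044678, ENSMUSG00000022587, ENSMUSG00000075602, ENSMUSG00000079018 and ENSMUSG00000022584, in that order. Ly6k lies inside an antisense gene, Gm17189, and whether strand was used in counting is not given in the sources used here. Ly6c1 and Ly6c2 are closely related copies, so reads of one may be lost or assigned to the other. Of the 755 windows of 90 bases in the transcript Ly6c1-201, 17.7% also occurred in a Ly6c2 transcript, and none occurred in Ly6a, Ly6e, Ly6d or Ly6k. With windows of 50 bases the shared part was 31.7% with Ly6c2 and 5.03% with Ly6a. In the first 200 bases of that transcript, the end read by a 5′ kit, 17.9% of the 50-base windows were shared with Ly6c2 and 26.5% with Ly6a, and no 90-base window was shared with either. Counts of Ly6c1 and Ly6c2 are therefore uncertain as to which copy they come from. Whether reads of Ly6a were also counted as Ly6c1, or the reverse, was not tested.

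The promoters of Ly6c1 and Ly6c2 show how alike the 2 copies are upstream of their start sites. Each stretch below is the 250 bases before the start site, 5′ to 3′ on the gene's strand, from RefSeq (GRCm38.p6), at chr15:75048838-75049087 for Ly6c1 and chr15:75111972-75112221 for Ly6c2, both on the - strand. Capitals mark the longest run of bases that both share.
Ly6c1: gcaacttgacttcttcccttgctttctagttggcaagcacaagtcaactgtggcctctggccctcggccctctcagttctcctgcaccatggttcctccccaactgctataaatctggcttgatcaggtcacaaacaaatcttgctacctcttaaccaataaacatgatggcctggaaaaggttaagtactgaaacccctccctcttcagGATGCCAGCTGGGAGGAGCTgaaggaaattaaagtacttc
Ly6c2: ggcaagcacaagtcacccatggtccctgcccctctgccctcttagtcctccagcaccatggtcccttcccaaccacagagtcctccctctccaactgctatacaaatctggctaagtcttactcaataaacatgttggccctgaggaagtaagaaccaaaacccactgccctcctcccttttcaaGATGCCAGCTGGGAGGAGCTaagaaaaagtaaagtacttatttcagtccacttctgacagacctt
The shared run is 20 bases long and begins 40 bases before the start site of Ly6c1 and 65 bases before that of Ly6c2. In a global alignment, 164 of 216 aligned bases (75.9%) were identical. On both strands, neither stretch held the interferon motif of GAAA, then 2 bases of any kind, then GAAA, which 2.98% of 32851 promoter stretches of the same length held, nor the motif TTCNNNGAA, which 7.02% held. An absent motif says only that these letters are not in this window.

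Ly6a, the gene of Sca-1, had nearly the same level in both WT libraries when UMIs were summed over each library. It had a far lower level in IFT20-KO cells. Its level was 349 CPM (counts per 1000000 UMIs, with a 95% exact Poisson interval from 343 to 355) in unstimulated WT, 339 (335 to 342) in stimulated WT and 45.5 (44.3 to 46.8) in IFT20-KO cells. The log2 ratio of IFT20-KO over stimulated WT was -2.89 (-2.94 to -2.85), which is 7.43-fold lower, and that of stimulated over unstimulated WT was -0.04 (-0.07 to -0.01). The sign of the second ratio depended on the scaling: it was 1.31 for UMIs per cell without scaling and 0.073 with median-ratio size factors. For UMIs per cell, the ratio of IFT20-KO over stimulated WT was -3.52, where WT cells also had more UMIs in all. All intervals here cover counting error only.

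Ly6c1 was lower after stimulation and lower again in IFT20-KO cells. Its level was 435 CPM (428 to 442) in unstimulated WT, 19.5 (18.7 to 20.3) in stimulated WT and 2.52 (2.23 to 2.84) in IFT20-KO cells. The log2 ratio was -4.48 (-4.55 to -4.42) for stimulated over unstimulated WT, 22.3-fold lower, and -2.95 (-3.14 to -2.77) for IFT20-KO over stimulated WT, 7.74-fold lower. Ly6c2 had the same order at far fewer UMIs, with 166 UMIs (4.47 CPM, 3.82 to 5.20) in unstimulated WT, 47 (0.402 CPM, 0.295 to 0.534) in stimulated WT and 17 (0.160 CPM, 0.0930 to 0.256) in IFT20-KO cells. Its log2 ratios were -3.48 (-3.98 to -3.001) and -1.33 (-2.22 to -0.50). With the UMIs of both copies summed as 1 gene, the ratios were -4.47 and -2.89.

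Ly6e was lower after stimulation and slightly lower again in IFT20-KO than in stimulated WT cells. It measured 1462 CPM (1450 to 1475) in unstimulated WT, 361 (358 to 365) in stimulated WT and 312 (309 to 316) in IFT20-KO cells. Stimulated over unstimulated WT gave a log2 ratio of -2.02 (-2.03 to -1.998), 4.05-fold lower, and IFT20-KO over stimulated WT gave -0.21 (-0.23 to -0.19), 1.16-fold lower. For UMIs per cell without scaling these ratios were -0.66 and -0.84, with stimulated WT cells the deepest of the 3 libraries. The ratios of Ly6c1 on that scale were -3.13 and -3.58.

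Ly6d and Ly6k were rare in all 3 libraries. Ly6d measured 0.727 CPM (0.479 to 1.06) in unstimulated WT, 1.68 (1.45 to 1.93) in stimulated WT and 2.95 (2.63 to 3.30) in IFT20-KO cells, from 27, 196 and 314 UMIs. Ly6k measured 1.64 CPM (1.26 to 2.11), 1.32 (1.12 to 1.54) and 2.93 (2.62 to 3.28) in the same order, from 61, 154 and 312 UMIs. Both were highest in the IFT20-KO library, where the log2 ratio over stimulated WT was 0.82 (0.55 to 1.08) for Ly6d and 1.15 (0.87 to 1.44) for Ly6k, while the interval of Ly6k for stimulated over unstimulated WT held 0 (-0.32, -0.76 to 0.13). For UMIs per cell without scaling, the IFT20-KO over stimulated WT ratio was 0.19 for Ly6d and 0.53 for Ly6k, both within 2-fold, and Ly6k of stimulated over unstimulated WT turned to 1.03. A UMI of Ly6d was found in 12, 127 and 237 cells and one of Ly6k in 54, 98 and 235 cells, and 0, 5 and 7 cells had both. Of the 12 unstimulated cells with Ly6d, 5 had at least 2 regulatory T cell markers, beside 4.05% of all unstimulated cells, and these held 48.1% of its UMIs. Of its UMIs, 22.2% lay in 1 cell with at least 2 memory markers, which 3.67% of all unstimulated cells had. Another 29.6%, not exclusive of the others, lay in 3 cells with at least 2 stimulation markers, which 11.4% of all unstimulated cells had. The 7 unstimulated cells with at least 3 UMIs of Ly6c2 held 34.3% of its UMIs, all 7 had Cd3e, 2 had Cd4, 4 had Nkg7, 5 had Il2rb and 3 had Ccl5 (130 UMIs), and none had Cd8a or Lyz2. The 4 unstimulated cells with at least 2 of 4 NK cell markers held 21.7% of the Ly6c2 UMIs, in 3 of these cells, at 1345 CPM. The 295 unstimulated cells with at least 2 of 7 memory markers held 35.5% of them, in 12 cells, at 32.9 CPM. Il2rb and Ccl5 are among these memory markers. The part of NK-like or memory cells in the level of Ly6c2 was not tested. These cells were looked up after the values had been seen.

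**Figure D1:**
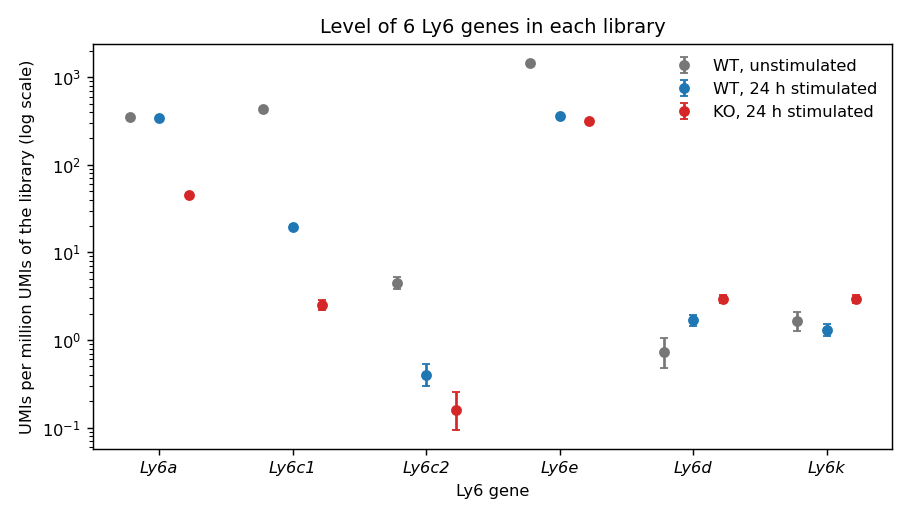
Level of each Ly6 gene in the 3 libraries, in CPM on a log axis, with points for the library and bars for the 95% exact Poisson interval. Levels are to be compared within a gene: Ly6a is at 339 in stimulated WT and 45.5 in IFT20-KO, Ly6c1 is lower at each step, and Ly6e is at 1462 before and 361 after stimulation.

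All 6 genes passed the minimum of 10 UMIs over both libraries in each comparison. For stimulated over unstimulated WT, 3 of the 6 (Ly6c1, Ly6c2 and Ly6e) were lower by over 2-fold, beside 23% of 13297 genes, and 1 (Ly6d) was higher by over 2-fold, beside 18.3%. For IFT20-KO over stimulated WT, 3 of the 6 (Ly6a, Ly6c1 and Ly6c2) were lower by over 2-fold, beside 1.67% of 13504 genes, and 1 (Ly6k) was higher by over 2-fold, beside 3.92%. Because the genes were selected on these contrasts, nothing is read from those counts. The median log2 ratio of all genes was -0.09 and 0.14. Relative to it, Ly6a differed by 0.05 and -3.03 and Ly6e by -1.92 and -0.35. Among the 2943 genes with at least 50 CPM in either stimulated library, 4 were lower by over 2-fold in IFT20-KO cells, namely Ift20 (-3.52), Ly6a (-2.89), Irf8 (-1.41) and Gbp2 (-1.20), and 1 was higher, Mbnl1 (1.03). Irf8 is an interferon-inducible transcription factor and Gbp2 an interferon-inducible GTPase, and these 5 genes were listed after the values had been seen. Ly6a was selected on this contrast, so nothing is read from its place among them either.

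**Figure D2:**
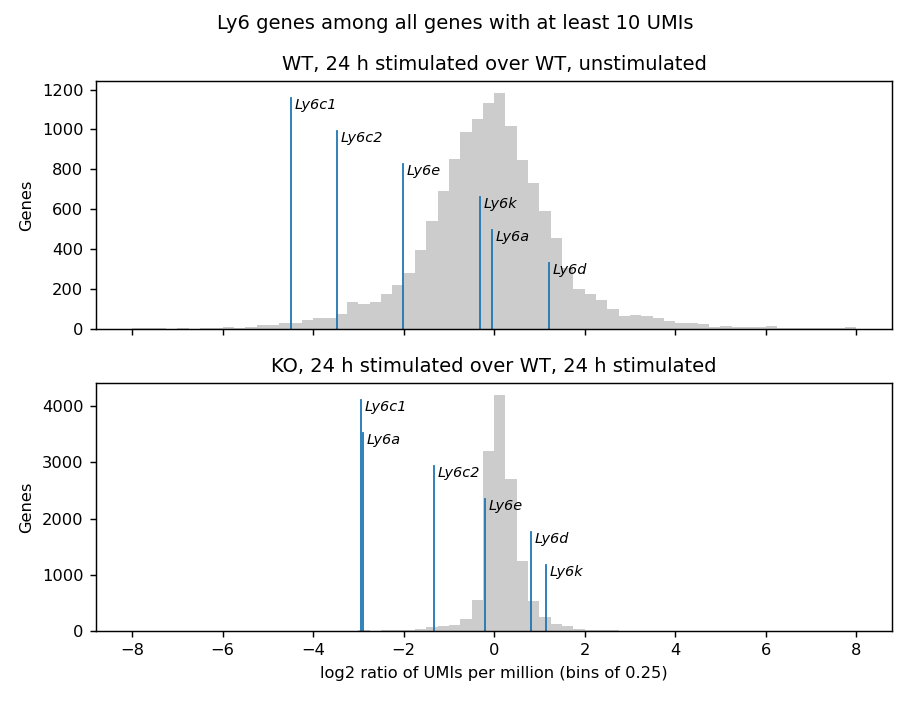
Log2 ratios of CPM for all genes with at least 10 UMIs (grey bars, genes per bin of 0.25), with a line for each Ly6 gene. The lower panel is narrow around its median of 0.14, with Ly6a and Ly6c1 at -2.89 and -2.95, while the upper panel is broad, with Ly6a at -0.04 near its centre.

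The depth of the cells differed between the libraries, so the levels were also compared within bins of UMIs per cell. In cells with 8000 to 16000 UMIs, Ly6a was 330 CPM in unstimulated WT, 390 in stimulated WT and 44.1 in IFT20-KO cells. In cells with 2000 to 4000 UMIs, the values were 334, 649 and 54.3 CPM. Ly6a of stimulated WT cells was highest, at 856 CPM, in cells with 4000 to 8000 UMIs and was 233 CPM in those with 16000 to 32000, while in IFT20-KO cells it stayed between 36.2 and 73.8 CPM in every bin. In unstimulated WT, Ly6a was 362 CPM at 4000 to 8000 UMIs and 325 CPM in the 14 cells with 16000 to 32000. Stimulated WT was thus above unstimulated WT in each bin below 16000 UMIs and below it at 16000 to 32000. Ly6c1 and Ly6e of stimulated WT cells were also highest at 4000 to 8000 UMIs, at 95.2 and 740 CPM. Ly6e was 579 CPM in stimulated WT and 374 in IFT20-KO cells with 1000 to 2000 UMIs, and 273 and 221 in those with 16000 to 32000. IFT20-KO was below stimulated WT for Ly6a, Ly6c1 and Ly6e in each of the 6 bins that both libraries filled, with 0 UMIs of Ly6c1 in IFT20-KO cells above 32000 UMIs. Leaving out the low-depth cells described above gave log2 ratios of -2.86 for Ly6a, -2.92 for Ly6c1 and -0.17 for Ly6e, IFT20-KO over stimulated WT. That cutoff was relative to each library's median. It removed the 885 stimulated WT cells with 2000 to 4000 UMIs but kept the 5373 IFT20-KO cells of that depth. The ratios without low-depth cells are therefore not at matched depth.

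**Figure D3:**
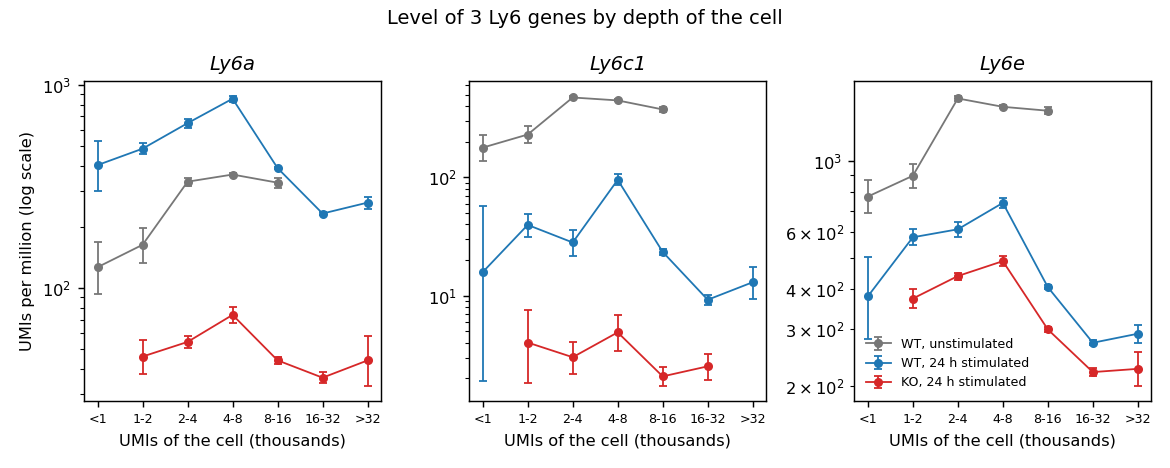
Level of Ly6a, Ly6c1 and Ly6e in CPM (log axis) by the UMIs of the cell, with 95% exact Poisson bars for bins of at least 20 cells in which the gene had a UMI. The IFT20-KO line lies below the stimulated WT line throughout, with Ly6a at 73.8 and 856 where both are highest.

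Ly6a was unequally spread over the stimulated WT cells. A UMI of Ly6a was found in 54.3% (53.2% to 55.3%) of unstimulated WT, 57.0% (56.0% to 58.0%) of stimulated WT and 14.8% (14.2% to 15.4%) of IFT20-KO cells, with exact Clopper-Pearson intervals. With every cell thinned at random to 1400 UMIs, which left out 801, 421 and 0 shallower cells, the shares were 31.5%, 27.4% and 5.52%. Cells with at least 10 UMIs of Ly6a made up 1.76% of unstimulated WT, 12.5% of stimulated WT and 0.625% of IFT20-KO cells, and held 14.7%, 69.3% and 30.3% of its UMIs. At equal depth, at least 3 UMIs were found in 3.75% (3.32% to 4.21%), 6.73% (6.23% to 7.25%) and 0.359% (0.267% to 0.473%) of the cells. The variance over the mean of the thinned UMIs was 1.68, 3.35 and 1.79. At equal depth, fewer stimulated than unstimulated WT cells thus had a UMI of Ly6a, while more had 3 or more.

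Ly6c1 was detected in 57.0% of unstimulated WT, 9.53% of stimulated WT and 1.33% of IFT20-KO cells, and in 36.3%, 2.71% and 0.388% after thinning. A small part of the stimulated WT cells had many UMIs of it, with 29 cells at 10 UMIs or more that held 19.6% of its UMIs. Ly6e was detected in 91.9%, 75.3% and 70.0% of the cells, and in 81.1% (80.2% to 82.0%), 36.6% (35.6% to 37.5%) and 36.0% (35.2% to 36.8%) after thinning. At least 3 thinned UMIs of Ly6e were found in 5.90% (5.43% to 6.39%) of stimulated WT and 3.64% (3.33% to 3.96%) of IFT20-KO cells. These intervals are over cells of 1 library each, so they do not say whether the conditions differ. The libraries held no other cell type in numbers from which the background of free RNA could be read, so how much of the low shares in IFT20-KO cells is background was not tested.

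**Figure D4:**
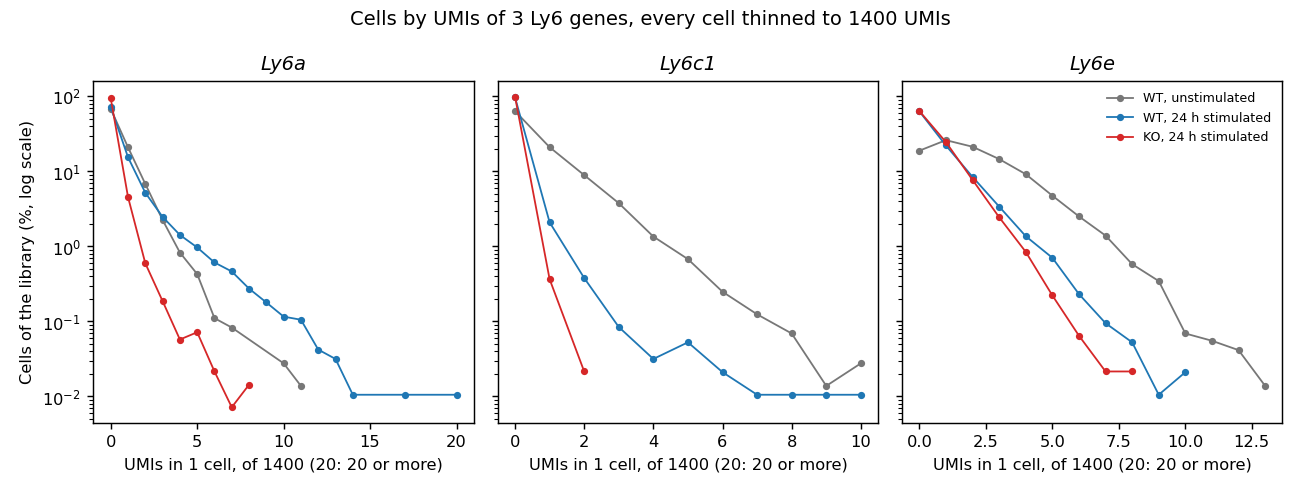
Share of each library's cells (percent, log axis) by the number of UMIs of Ly6a, Ly6c1 and Ly6e in a cell thinned to 1400 UMIs. Stimulated WT cells have the longest tail for Ly6a, with 6.73% at 3 or more against 0.359% of IFT20-KO cells, and the unstimulated WT line is the highest at 1 UMI or more for Ly6e.

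Ly6a, Ly6c1 and Ly6e were found together in single cells at shares that differed by the presence of one another. Among thinned unstimulated WT cells, Ly6c1 was found in 49.3% (47.2% to 51.3%) of cells with Ly6a and in 30.3% (29.0% to 31.6%) of cells without it. Ly6e was found in 87.2% and 78.3% of these cells. In stimulated WT cells, Ly6a was found in 77.04% (71.4% to 82.0%) of the 257 cells with Ly6c1 and in 26.0% (25.1% to 26.9%) of the others, and Ly6e in 51.8% of cells with Ly6a and 30.8% of cells without it. In IFT20-KO cells, 23 of the 54 cells with Ly6c1 also had Ly6a (42.6%, 29.2% to 56.8%), against 5.37% (5.00% to 5.76%) of the others. As a description over cells that share a library, Pearson's r of Ly6a and Ly6c1 was 0.22, 0.30 and 0.13 in the 3 libraries, and that of Ly6a and Ly6e was 0.20, 0.26 and 0.09. Ly6a and Ly6c1 share 50-base windows, and how far reads assigned to the wrong gene enter their joint values was not tested. At this depth none of Ly6a, Ly6c1, Ly6c2 and Ly6e was seen in 11.8%, 49.9% and 61.1% of the cells. At least 3 of these genes were seen in 1024, 152 and 18 cells. Ly6d and Ly6k were left out of these counts.

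The genes whose UMIs went most closely with Ly6a from cell to cell were other Ly6 genes and interferon-inducible ones. In unstimulated WT cells, the genes with the highest r to Ly6a included Ly6c1 (0.22), Ly6e (0.20), Isg15 (0.12) and Gbp2 (0.11). In stimulated WT cells they were Gbp2 (0.30), Ly6c1 (0.30), Igtp (0.26), Ly6e (0.26) and Samhd1 (0.24), and the 3 lowest were Mif (-0.16), Hsp90ab1 (-0.13) and Ptma (-0.13). In IFT20-KO cells they included Igtp, Ly6e, Gbp2 and Ms4a4b, each between 0.07 and 0.09. Ly6c1 had a higher r to Ly6a there (0.13). It was outside this ranking because 0.388% of the thinned cells had a UMI of it, below the minimum of 1%. Ly6e of stimulated WT cells went most closely with Ms4a4b (0.28), Ly6a (0.26), Igtp (0.22) and Gbp2 (0.20), and in IFT20-KO cells with Ms4a4b (0.17), Ltb (0.14), Ccr7 (0.14) and H2-K1 (0.13). Ly6c1 of unstimulated WT cells went, beside Ly6a and Ly6e, with Pdlim4 (0.09), and its lowest were Igfbp4 (-0.13), Cd5 (-0.11) and Rgs10 (-0.08). Correlations of this size in sparse counts are descriptions, over 7230, 9482 and 13920 cells.

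In stimulated WT cells with 0, 1, 2 and at least 3 thinned UMIs of Ly6a, Gbp2 was 214, 405, 559 and 1080 CPM. Ly6c1, in the same order, was 6.95, 23.4, 56.5 and 251 CPM, and Igtp was 154, 278, 422 and 650 CPM. All 3 genes were higher in each class with more Ly6a, while Mif was lower in each, at 2602, 2176, 2128 and 1743 CPM. Gbp2, Ly6c1, Igtp and Mif were named for their r to Ly6a over these same cells. Their direction over the classes follows from that choice, so nothing further is read from it. Ift20 was 74.1, 64.8, 63.7 and 70.5 CPM. The rise was not particular to Ly6 and interferon-inducible genes. Ms4a4b, whose r to Ly6a in these cells was also high (0.22), was 605, 1024, 1119 and 1630 CPM. Igfbp4 was 100, 141, 194 and 235 CPM, and Il7r was 9.03, 14.1, 15.9 and 38.1 CPM. The classes of Ly6a thus also differed in other genes and in depth. Their median full depth was 13115, 11321, 11013 and 9600.5 UMIs. In unstimulated WT cells, Isg15, a ubiquitin-like interferon-inducible protein, was 38.5, 54.7, 104 and 261 CPM over the same classes of Ly6a. Isg15 too was named for its r to Ly6a in those cells. Between the stimulated libraries, the log2 ratio of IFT20-KO over WT was -1.20 for Gbp2, -0.77 for Igtp, -0.21 for Samhd1 and -0.13 for Mif. For stimulated over unstimulated WT it was 2.41 for Gbp2, 0.58 for Igtp, -0.39 for Samhd1 and 2.86 for Mif.

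The level of the Ly6 genes was then set against marker genes of T cell states, inside and outside gates of cells with a thinned UMI of the marker. In unstimulated WT cells, the 175 cells with 2 or more of 6 interferon-stimulated genes had Ly6a at 767 CPM, against 336 CPM in the others, a log2 ratio of 1.19 (0.97 to 1.40). The ratio in these cells was 0.60 (0.37 to 0.83) for Ly6c1 and 0.42 (0.28 to 0.55) for Ly6e, and with all UMIs of a cell the 3 ratios were 0.86, 0.26 and 0.23. In the 163 cells with Foxp3, the defining transcription factor of regulatory T cells, Ly6e was 2498 CPM against 1462 CPM outside, and its log2 ratio was 0.77 (0.65 to 0.89). Cells with Cd5, a surface marker whose level is known to follow the strength of self-recognition, had less Ly6c1, at 348 CPM against 495 CPM, with a log2 ratio of -0.51 (-0.60 to -0.41).

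In the stimulated libraries, Ly6 levels also differed with the naïve cell marker Il7r, the gene of the interleukin 7 receptor alpha chain. The 136 stimulated WT cells with Il7r had Ly6a at 1082 CPM against 407 CPM outside, a log2 ratio of 1.41 (1.20 to 1.61). In these cells the ratio was 2.22 (1.56 to 2.82) for Ly6c1 and 1.22 (1.003 to 1.43) for Ly6e. The cells with Il7r were shallower, with a median of 2554 UMIs against 12574.5. With all UMIs of a cell in place of 1400, the 3 ratios were 1.05, 1.84 and 0.79. The 192 IFT20-KO cells with Il7r had Ly6a at 149 CPM against 50.1 CPM, a log2 ratio of 1.57 (1.08 to 2.03), at medians of 2618.5 and 5408 UMIs. Ly6a was 149 CPM in IFT20-KO cells with Il7r and 407 CPM in stimulated WT cells without it, at medians of 2618.5 and 12574.5 UMIs. The part of cell state in the difference between the libraries was not tested. The 186 stimulated WT cells with Tbx21 (T-bet, the transcription factor of Th1 cells) had Ly6a at 1006 CPM against 405 CPM, a log2 ratio of 1.31 (1.13 to 1.49), at medians of 13447.5 and 12485.5 UMIs. The 631 cells with Il2 had Ly6e at 303 CPM against 446 CPM, with a log2 ratio of -0.56 (-0.74 to -0.38).

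**Figure D5:**
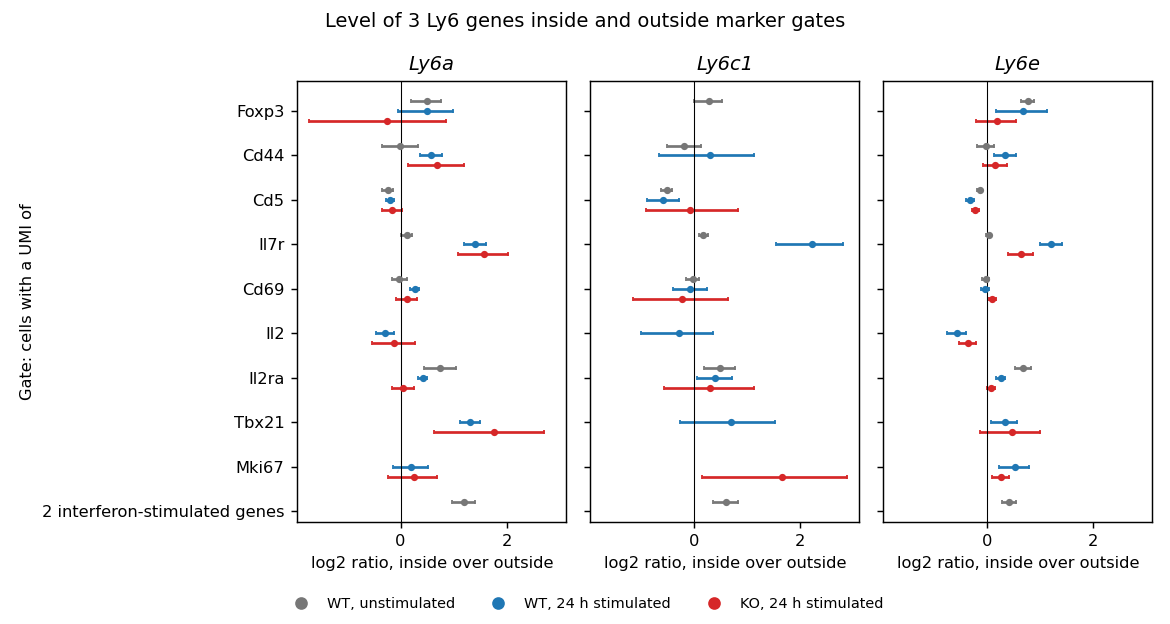
Log2 ratio of the level of Ly6a, Ly6c1 and Ly6e in cells with a UMI of the marker named on the vertical axis over cells without it, at 1400 UMIs per cell, with points for the library and bars for the 95% interval of counting error. The Il7r gate of stimulated WT cells lies at 1.41, 2.22 and 1.22 for the 3 genes, while that of unstimulated WT cells lies between 0.042 and 0.18.

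Lists of related genes were counted beside the Ly6 genes. Of 52 type I interferon-stimulated genes, 50 passed the minimum of 10 UMIs for stimulated over unstimulated WT, and 40 were lower and 0 higher by over 2-fold, beside 23% and 18.3% of all genes, with a median log2 ratio of -2.41 beside -0.09 for all genes. Among them Rtp4 was at -6.53, Irf7 at -5.76 and Ifi213 at -5.21, while Phf11b was at 0.48 and Bst2 at 0.26. For IFT20-KO over stimulated WT, 47 passed it, 6 were lower and 1, Mx1 (1.24, from 28 against 13 UMIs), was higher, beside 1.67% and 3.92% of all genes, with a median of -0.24 beside 0.14 for all genes. The 6 were Rtp4 (-3.10), Ifit1bl1 (-2.09), Ifit3b (-1.99), Isg15 (-1.30), Irf7 (-1.03) and Ifit3 (-1.01), all under 11 CPM in stimulated WT and named after their values were seen. Of the more abundant ones, Zbp1 was at -0.93, Isg20 at -0.75, and Sp100 was at 0.16.

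A list of 9 genes held interferon receptors, their kinases, a feedback inhibitor of this signaling and Ifng. The receptor genes Ifngr1 (-2.34), Ifnar1 (-1.41), Ifngr2 (-1.30) and Ifnar2 (-1.09) were lower by over 2-fold in stimulated than in unstimulated WT. Ifng, the gene of interferon gamma, was higher (3.78), and these counts stand beside the same 23% and 18.3% of all genes. For IFT20-KO over stimulated WT, Ifng was the 1 gene of the 9 past 2-fold, beside 1.67% of all genes lower, at -3.35, with 0.291 CPM from 31 UMIs against 2.97 CPM from 347 UMIs, and the median of the 9 was 0.25. Ifngr1 was at 0.40 in that comparison. Ifng and Ifnar2 are named here after their values were seen.

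Of 31 other genes of the Ly6 and uPAR family, 5 passed the minimum of 10 UMIs in each comparison. For stimulated over unstimulated WT, 3 were lower by over 2-fold, Ly6g5b (-2.36, from 8 against 13 UMIs), Lynx1 (-1.57) and Lypd6b (-1.48), beside 23% of all genes, and for IFT20-KO over stimulated WT 1 was lower, Ly6i (-2.28), from 6 against 32 UMIs, beside 1.67% of all genes. Of 27 genes past that minimum that build and attach the GPI anchor, 3 were lower (Dpm1, Pigv and Dpm3) and 2 higher (Pigu and Pigf) with stimulation, and 0 were lower and 1 higher (Pgap1, 1.09) in IFT20-KO cells. Of 11 genes past it for other GPI-anchored T cell proteins, 4 were lower (Cd55, Thy1, Art2b and Nt5e) and 5 higher (Sema7a, Cd160, Izumo1r, Cd24a and Prnp) with stimulation, and 0 were lower and 1 higher (Nt5e, 1.21) in IFT20-KO cells, with Thy1 at 0.21, Cd52 at -0.04 and Cd48 at -0.08. For both GPI lists the shares of all genes were 23% lower and 18.3% higher with stimulation, and 1.67% and 3.92% in IFT20-KO cells. Those outside the rule of size among these were named after their values were seen. The medians of the last 2 lists for IFT20-KO over stimulated WT were 0.15 and 0.02, beside -2.89 for Ly6a. The 2 comparisons share the stimulated WT library, so their ratios are not independent.

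Within the IFT20-KO library, 665 cells still had an Ift20 UMI. This split was chosen after the values had been seen. Ly6a measured 48.1 CPM (43.4 to 53.1) in these cells and 45.3 CPM (44.0 to 46.7) in the 13255 cells without one, at medians of 11821 and 4139 UMIs. In stimulated WT cells the same split gave 312 CPM (308 to 316) in 5101 cells with an Ift20 UMI and 390 CPM (384 to 396) in 4802 cells without, at medians of 14382 and 7715 UMIs. At 1400 UMIs per cell the WT values were 389 CPM (355 to 425) with and 420 CPM (409 to 432) without an Ift20 UMI, with overlapping intervals. The IFT20-KO values at that depth were 57.6 CPM (27.6 to 105.9, from 10 UMIs) with and 51.4 CPM (48.2 to 54.7) without one. Both groups of IFT20-KO cells were far below both groups of WT cells. Only 9.43% of stimulated WT cells had an Ift20 UMI at 1400 UMIs, so a cell without one may still express Ift20. The split therefore cannot show whether Ly6a follows Ift20 within a library. An Ift20 UMI in an IFT20-KO cell can come from free RNA, and whether it marks a cell that escaped deletion was not tested. By the paper, Cre removes some exons of Ift20, and whether RNA of the shortened gene was counted as Ift20 was not tested either.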

How the data were processed

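The libraries were single-cell RNA-seq of sorted mouse spleen CD4+ T cells, 1 library per condition. The authors deposited UMI counts per gene and cell barcode, made with Cell Ranger (version 3.1.0 in the matrix header) on mm10; no other normalization was applied to the deposited counts. The labels name a 5′ kit and the study's methods a 3′ kit, which was not resolved here.

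A barcode was kept if over 200 genes were detected and mitochondrial genes took under 15% of its UMIs, which left out 222, 417 and 12 barcodes of unstimulated WT, stimulated WT and IFT20-KO cells. No doublet caller was run. Levels were summed UMIs per 1000000 UMIs of the library (37133949, 116979076 and 106435143 UMIs). Intervals of 95% were exact Poisson for levels, exact binomial for ratios and Clopper-Pearson for shares. They cover counting error only. With 1 library per condition no test was possible and no p-value is given, and a ratio was counted as lower or higher past 2-fold among genes whose UMIs in the compared pair of libraries summed to 10 or more. Cells were thinned to 1400 UMIs (seed 7) for shares at equal depth, pairs of genes, gates and Pearson's r, taken over log2(UMIs + 1) and genes with a UMI in at least 1% of cells. The scripts were tested on simulated data with known ratios.

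The 6 genes and all gene lists were chosen with earlier results of these data known. Named genes were the 6 Ly6 genes, the genes of each list with the 3 highest and 3 lowest ratios among those with at least 20 CPM in either library, gate markers, the 5 genes with the highest and the 3 with the lowest r to a Ly6 gene seen in at least 5% of thinned cells, and Ift20; other named genes are said to be chosen after their values were seen. Promoters were matched for 2 of the 6 genes in the RefSeq table. Alternatives were other cell filters, scalings, depths, minimum counts and folds. Python 3.11.15, NumPy 2.4.6, SciPy 1.17.1, pandas 2.3.3, Biopython 1.88 and matplotlib 3.10.9 were used. Some genes that these rules would name, and one gate, are not reported here.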

Additional observations from a re-analysis of the deposited data

How the results depend on the processing

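The lower levels of Ly6a and Ly6c1 in IFT20-KO than in stimulated WT cells kept their direction in all alternatives run, with log2 ratios from -3.52 to -2.86 and from -3.58 to -2.89. The ratio of Ly6a in stimulated over unstimulated WT changed sign with the scaling. With median-ratio size factors, the stimulated over unstimulated WT ratios were 0.073 for Ly6a, -4.37 for Ly6c1 and -1.90 for Ly6e, and the IFT20-KO over stimulated WT ratios were -3.03 for Ly6a and -0.35 for Ly6e. With UMIs per cell, Ly6a, Ly6c1 and Ly6e were at 1.31, -3.13 and -0.66 in the first comparison and at -3.52, -3.58 and -0.84 in the second. With each cell weighted equally they were at 0.34, -3.96 and -1.70, and at -3.06, -3.21 and -0.24. With cells thinned to 1400 UMIs they were at 0.27, -3.97 and -1.77 in the first, and Ly6a and Ly6c1 at -3.02 and -3.28 in the second. With over 1000 genes and under 10% mitochondrial UMIs, Ly6a and Ly6e were at -0.087 and -2.06 in the first and Ly6e at -0.19 in the second, and without low-UMI cells at -0.10 and -2.07, and -0.17. The share of cells with Ly6a was 31.5%, 27.4% and 5.52% in the 3 libraries after thinning, and for unstimulated and stimulated WT 53.0% and 55.8% with all barcodes, 59.7% and 60.3% with the stricter filter and 59.3% and 61.4% without low-UMI cells. With all UMIs, cells with Ly6a had Ly6c1 more often than cells without it by 36.1 percentage points in unstimulated and 12.8 in stimulated WT. Of 77 gate ratios, with all UMIs in place of 1400, 39 stayed within their interval, 30 moved beyond it and 8 changed sign. A change of sign was counted only where the interval at 1400 UMIs excluded 0. The 8 were for Ly6a, Cd44 in IFT20-KO (-0.35) and stimulated WT (-0.21) and Cd69 in stimulated WT (-0.089), for Ly6c1, Il2ra in stimulated WT (-0.21), and for Ly6e, Cd44 in stimulated WT (-0.018), Cd69 in IFT20-KO (-0.29) and Il2ra in IFT20-KO (-0.23) and stimulated WT (-0.35). Of the interferon-stimulated genes in IFT20-KO over stimulated WT, 0 were higher with a minimum of 50 UMIs, and 10 were lower and 4 higher at 1.5-fold. Shares of all genes at these settings are not given here. The shares of 1.67% lower and 3.92% higher are for 2-fold and a minimum of 10 UMIs. They are no background for these counts, so nothing is read from the counts. The cause of the differences between the alternatives was not tested. Ly6c2, Ly6d and Ly6k had few UMIs, and their ratios for IFT20-KO over stimulated WT ranged from -1.96 to -1.25, from 0.19 to 1.05 and from 0.53 to 1.36. The range for the abundant Ly6e was -0.84 to -0.17. Leaving out a replicate was not possible with 1 library per condition.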
